A study of Mus musculus with 9 samples.

Results

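The intracellular fibroblast growth factor (FGF) homologous factors are the 4 genes Fgf11, Fgf12, Fgf13 and Fgf14, taken here by name from the 54232 genes counted and matched from their Ensembl identifiers to mouse symbols. They were measured by RNA sequencing of embryonic day 14.5 (E14.5) cochlear ducts, pooled from both inner ears of 1 embryo for each library, on the FVB/NJ background. Littermate embryos came from matings between heterozygotes for cGT, a gene-trap null allele of Prdm16 present in all tissues, not in the duct alone. The 3 groups were WT (+/+), Prdm16 cGT heterozygote (cGT/+) and Prdm16 cGT null (cGT/cGT), with 3 embryos in each group and 9 libraries in all. Prdm16 encodes a zinc finger transcription regulator, and the comparisons ask which genes differ in the developing duct when 1 or both copies are trapped.

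Members of this family look like secreted FGFs but lack a signal for export and do not act through the FGF receptors in the usual way. They stay inside the cell, where they bind the cytoplasmic tail of voltage-gated sodium channel alpha subunits and change how the channels inactivate and where they sit in the membrane. They are best known from neurons and heart muscle. Most of these genes use alternative first exons, which give different amino-terminal ends to a shared core.

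In mm10 all 4 genes lie on the minus strand and are protein coding in GENCODE. Fgf11 lies at chr11:69796068-69801857 and spans 5790 bases, whereas Fgf12 at chr16:28160098-28753068, Fgf13 at chrX:59062145-59568071 and Fgf14 at chr14:123977907-124677127 span 592971, 505927 and 699221 bases. Coding exons 2, 3 and 4 are 111, 104 and 199 bases long in every member, in the transcripts Fgf11-202, Fgf12-201, Fgf13-201 and Fgf14-202. Over these 414 bases Fgf12 and Fgf14 were the closest pair, with 75.1% of positions identical, and Fgf11 and Fgf14 the most distant, with 64.7%. The third coding exon shows this likeness and the differences that let reads be assigned to 1 gene. Capitals mark the 52 of 104 positions at which all 4 genes have the same base, and each sequence is the coding strand from GENCODE transcripts (mm10).
Fgf11, chr11:69799352-69799455: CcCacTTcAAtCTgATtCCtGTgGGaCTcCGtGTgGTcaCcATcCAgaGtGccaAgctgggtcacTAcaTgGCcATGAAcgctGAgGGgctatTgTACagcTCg
Fgf12, chr16:28372913-28373016: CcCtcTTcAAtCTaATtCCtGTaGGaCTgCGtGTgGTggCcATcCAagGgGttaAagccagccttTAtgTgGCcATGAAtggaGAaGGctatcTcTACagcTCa
Fgf13, chrX:59125894-59125997: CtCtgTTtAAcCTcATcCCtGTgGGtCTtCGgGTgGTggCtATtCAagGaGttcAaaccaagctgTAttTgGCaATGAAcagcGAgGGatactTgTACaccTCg
Fgf14, chr14:124132463-124132566: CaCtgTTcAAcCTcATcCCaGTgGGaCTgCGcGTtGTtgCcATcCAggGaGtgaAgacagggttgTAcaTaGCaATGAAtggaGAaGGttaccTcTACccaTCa
No run of 50 bases, the read length, was shared between any members. The share of 50-base runs also found in another gene was 0.777% for Fgf11, 0.374% for Fgf12, 0.747% for Fgf13 and 3.05% for Fgf14. The Fgf14 share came from the antisense gene Gm28932, with 220 exon bases in common, which had 0 counts in 8 libraries and 1 count in the other.

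Libraries held 24095322 to 30819118 counted reads, so that 3 counts, used here as a detection floor, corresponded to 0.0968 to 0.126 CPM (read counts scaled by TMM to a common library total). Prdm16 averaged 202 ± 21.0 CPM in WT, 138 ± 14.5 in heterozygotes and 23.4 ± 4.17 in nulls (SD, n = 3), in the order of the labels. The duct markers fixed for cochlear epithelium were present in every library, with a summed level of 10440 to 11943 CPM in WT, 12205 to 12623 in heterozygotes and 13306 to 17770 in nulls, led by Oc90 and Gata3. The summed level of 8 mesenchyme markers, led by Col1a2 and Col3a1, ran from 36.5 to 1564 CPM and was highest in null replicate 3, WT replicate 2 (846 CPM) and WT replicate 1 (427 CPM). Melanocyte markers summed to 62.2 to 144 CPM in WT, 28.3 to 48.5 in heterozygotes and 19.0 to 51.3 in nulls. Among 12 neuron markers, most of the sum came from Isl1, which the otic epithelium also expresses, and Neurod1 had 0 to 4 counts in any library. From Y-linked genes 4 libraries were male (WT 1, heterozygote 1, null 1 and null 2) and 5 female. In these bulk samples fewer cells of a type and less RNA per cell cannot be told apart.

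The 4 genes were expressed at very different levels in WT ducts. Per kilobase of merged exon, Fgf11 stood at 10.01 ± 0.420 CPM per kb, Fgf13 at 1.84 ± 0.111, Fgf14 at 0.0990 ± 0.0452 and Fgf12 at 0.0809 ± 0.0391 (SD, n = 3). Fgf11 and Fgf13 did not overlap with any other member, while the ranges of Fgf14 (0.0656 to 0.150) and Fgf12 (0.0537 to 0.126) did, so the lowest places in the order were not separated. By this length Fgf11 made up 83.2% of the family's summed level per kb in WT, Fgf13 15.3%, Fgf14 0.832% and Fgf12 0.665%. The shares depend on the length used. Per kilobase of the longest transcript, WT means were 10.03 for Fgf11, 2.97 for Fgf13, 0.121 for Fgf12 and 0.115 for Fgf14, which reverses the lowest places. In nulls the order by merged exon was the same in name. There Fgf14 at 1.14 CPM per kb (1.12 to 1.16) no longer overlapped with Fgf12 (0.0572 to 0.155) and approached Fgf13 at 2.02. The share of Fgf14 was 2.25 ± 1.00% in heterozygotes and 7.17 ± 0.467% in nulls.

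**Figure D1:**
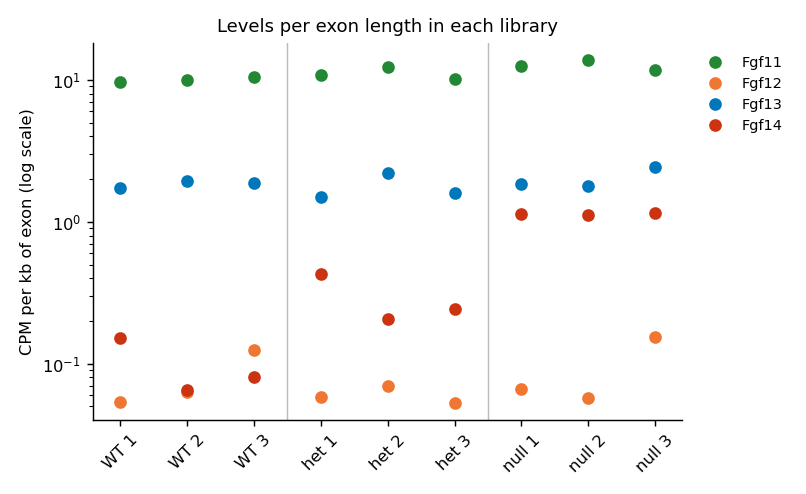
Level of each gene per kilobase of merged exon (CPM per kb, log axis) in each of the 9 libraries, with lines between genotypes. Fgf14 shared the lowest range with Fgf12 in WT and lay near 1.14 CPM per kb in the null libraries.

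Fgf14, also called FHF4, showed by far the largest genotype difference in the family. It had 17, 7 and 10 counts in the WT libraries, 45, 24 and 28 in heterozygotes and 115, 145 and 116 in nulls. Scaled to CPM these were 0.629, 0.274 and 0.339 in WT, 1.81, 0.864 and 1.02 in heterozygotes and 4.74, 4.68 and 4.86 in nulls. Every null library was above every heterozygote library, and every heterozygote library was above every WT library. The order WT below heterozygote below null without overlap was met by 160 of 17797 genes (0.899%). Group means were 0.414 ± 0.189, 1.23 ± 0.504 and 4.76 ± 0.0905 CPM (SD, n = 3), which put heterozygotes at 2.97-fold and nulls at 11.5-fold of the WT mean.

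The WT level of Fgf14 rested on few reads, 34 in all 3 libraries (exact Poisson 95% interval 23.5 to 47.5), against 97 in heterozygotes (78.7 to 118) and 376 in nulls (339 to 416). These intervals cover counting error only. All 3 WT libraries were nevertheless above the detection floor of 3 counts. The spread among nulls was small, with a coefficient of variation of 1.90%, below the 8.93% that counting alone gives at their mean number of reads. The heterozygote mean lay at 18.8% of the way from WT to null in CPM and at 42.0% on the log2 scale. For Prdm16 itself the same positions were 35.7% and 17.5%.

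The fitted log2 fold change of Fgf14 was 3.50 (SE 0.326) in null against WT, 1.55 (SE 0.435) in heterozygote against WT and 1.95 (SE 0.298) in null against heterozygote. The genes were chosen with these values known, so they are given as a description without a p-value. Fgf14 ranked 14th from the highest of 17168 genes tested in null against WT and 14th of 17269 in heterozygote against WT. It passed the call rule (edgeR, adjusted p under 0.05 and absolute log2 fold change over 0.5) in null against WT and null against heterozygote, but not in heterozygote against WT. Leaving out each library in turn gave 3.29 to 3.93 in null against WT, and Fgf14 was called in 6 of 6 such fits. In null against heterozygote the range was 1.75 to 2.33 and only 1 of 6 fits called it, the one without null replicate 3. WT replicate 2 and null replicate 3 were the libraries of their genotypes with most mesenchyme markers. Without both, the log2 fold change was 3.28 in null against WT, a setting chosen after seeing the data. It leaves out only 1 library in each of the other comparisons, with 1.34 in heterozygote against WT and 1.94 in null against heterozygote. Leaving out each library in turn gave 1.18 to 1.98 in heterozygote against WT, with 0 of 6 fits calling Fgf14.

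Several markers moved with the genotypes as Fgf14 did, or against it, and their part in its difference was not tested. The epithelial marker sum given above was ordered by genotype without overlap, but Oc90 alone made up 69.4 to 75.4% of it. The other 9 epithelial markers summed to 3123 to 3488 CPM in WT, 3448 to 3456 in heterozygotes and 3274 to 4404 in nulls, so the groups overlapped. In null against WT the log2 fold changes of all 10 ran from 0.0050 for Cdh1 to 0.53 for Oc90, with a median of 0.24 against 0.0097 over all genes tested. The largest were Oc90 and Otx2 (0.50), which the paper places in the roof, and Lmx1a (0.50), its outer sulcus marker, while Epcam was at 0.07. By edgeR 0 of the 10 genes was called in any comparison, 5 were higher in null against WT at an unadjusted p under 0.05, and DESeq2 called 1 of them and limma-voom 0. Hair cell markers summed to 136 to 205 CPM in WT, 116 to 150 in heterozygotes and 154 to 261 in nulls, so the groups overlapped. Of 8 hair cell markers tested in null against WT 2 rose, Myo7a, a hair bundle myosin (log2 fold change 1.08, edgeR adjusted p = 0.0257), and Pcp4, a calmodulin regulator (2.11, edgeR adjusted p = 0.0187). The other 6 were not called and lay on both sides of 0, from -0.29 for Atoh1 to 0.58 for Otof. Against WT, heterozygotes had 3 of 8 hair cell markers lower and 0 higher at an unadjusted p under 0.05, with 0 called by edgeR, DESeq2 and limma-voom. In null against heterozygote 3 of 9 differed at an unadjusted p under 0.05, all higher, and the median log2 fold change was 1.18. There edgeR called Pcp4 alone (1.87, edgeR adjusted p = 0.0282), a call lost without any 1 heterozygote replicate (up to 0.164). DESeq2 called Myo7a and Pcp4, and limma-voom 1 gene. In null against WT 2 of 6 fits without 1 library called Myo7a (without null replicate 2 or 3, highest edgeR adjusted p = 0.135). For Pcp4 3 of 6 did (not without WT replicate 1, WT replicate 2 or null replicate 2, highest 0.117). Neither was called without both mesenchyme-rich libraries (log2 fold changes 0.94 and 1.99, edgeR adjusted p = 0.0852 and 0.0605). The melanocyte sum was higher in every WT library than in any other. Of 6 melanocyte markers tested, 5 were lower in null and 4 in heterozygote against WT at an unadjusted p under 0.05, with 0 called by edgeR and limma-voom and 3 and 4 by DESeq2. Mesenchyme markers were lower in every heterozygote (50.3 to 92.4 CPM) than in any WT library (103 to 846 CPM), with 7 of 8 lower at an unadjusted p under 0.05, 0 called by edgeR and 4 by DESeq2. Endothelial markers summed to 2.61 to 84.7 CPM in WT, 3.49 to 6.28 in heterozygotes and 2.55 to 48.7 in nulls. All 5 of them tested in heterozygote against WT were lower at an unadjusted p under 0.05 (median log2 fold change -3.56), with 0 called by edgeR and 1 by DESeq2. Skeletal and cardiac muscle markers, led by Tnnt2, summed to 5.25 to 6.74 CPM in WT, 6.63 to 8.48 in heterozygotes and 8.42 to 13.1 in nulls. Only Tnnt2 of these 6 was tested in null against WT (log2 fold change 0.95, edgeR adjusted p = 0.0989). It was called higher by DESeq2 but not by edgeR or limma-voom.

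**Figure D2:**
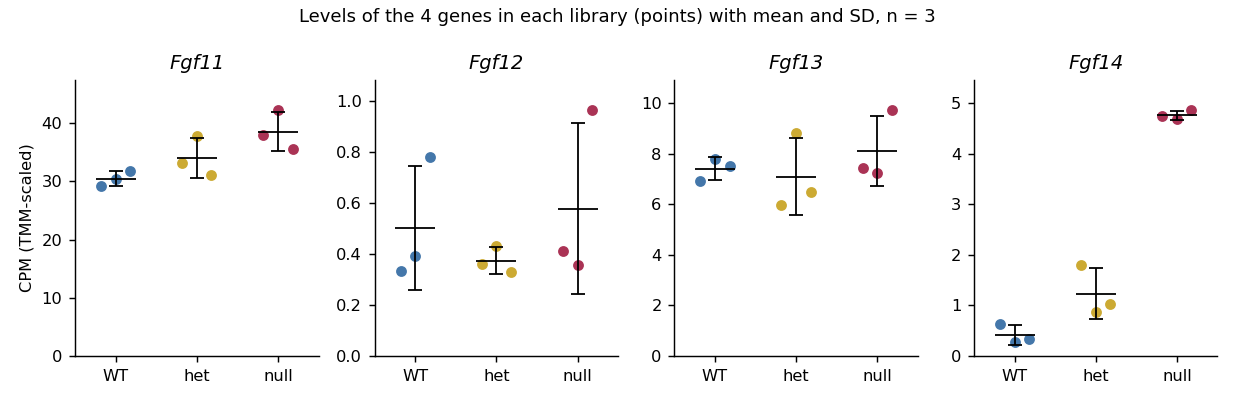
Level of each of the 4 genes in CPM (linear axes from 0), with 1 point per library and black bars for mean and SD of the 3 embryos of each genotype. Fgf14 separated the 3 genotypes, from 0.414 CPM in WT to 4.76 in nulls, whereas the groups overlapped for Fgf12 and Fgf13.

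Gene counts add up the transcripts of a gene, and Fgf14 has 2 annotated coding transcripts that differ in their first coding exon and share the other 4. The first coding exons lie 484196 bases apart and are printed to show what the counts cannot separate, with the start codon in capitals (coding strand, mm10).
Fgf14-201, chr14:124192329-124192521: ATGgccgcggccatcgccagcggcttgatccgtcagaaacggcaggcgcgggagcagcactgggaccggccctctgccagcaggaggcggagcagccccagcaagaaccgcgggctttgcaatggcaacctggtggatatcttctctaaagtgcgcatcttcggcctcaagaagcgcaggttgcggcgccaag
Fgf14-202, chr14:124676510-124676717: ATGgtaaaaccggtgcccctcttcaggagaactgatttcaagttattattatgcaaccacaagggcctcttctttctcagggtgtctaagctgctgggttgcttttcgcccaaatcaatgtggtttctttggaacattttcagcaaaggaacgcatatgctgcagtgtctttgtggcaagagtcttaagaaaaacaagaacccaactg
Which of these starts the additional Fgf14 reads of the null ducts came from was not analysed here.

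Fgf11, known as FHF3, was the most abundant member and showed a small difference. Its CPM was 29.2, 30.4 and 31.8 in WT, 33.1, 37.7 and 31.1 in heterozygotes and 37.9, 42.2 and 35.5 in nulls. Null libraries all lay above WT libraries, but heterozygotes overlapped with both. Means were 30.5 ± 1.28, 34.0 ± 3.41 and 38.5 ± 3.39 CPM (SD, n = 3), so nulls stood at 1.27-fold of WT. The log2 fold change was 0.33 (SE 0.101) in null against WT, 0.16 (SE 0.0873) in heterozygote against WT and 0.18 (SE 0.108) in null against heterozygote. None of these passed the fold threshold of 0.5, and 25.4% of genes tested had a larger absolute value in null against WT.

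Fgf13, or FHF2, an X-linked gene, did not separate the genotypes. Its CPM was 6.92, 7.80 and 7.52 in WT, 5.98, 8.82 and 6.47 in heterozygotes and 7.42, 7.23 and 9.71 in nulls. The lowest and the second highest values were both from heterozygotes, and the highest came from null replicate 3, the library rich in mesenchyme markers. The log2 fold change was 0.13 (SE 0.174) in null against WT and -0.06 (SE 0.164) in heterozygote against WT. Without null replicate 3 the first was -0.02. The 4 male libraries ran from 5.98 to 7.42 CPM and the 5 female libraries from 6.47 to 9.71, with medians of 7.07 and 7.80, so the sexes overlapped.

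Fgf12, or FHF1, was close to the detection floor, with 9, 10 and 23 counts in WT, 9, 12 and 9 in heterozygotes and 10, 11 and 23 in nulls. In CPM this was 0.333, 0.392 and 0.780, then 0.361, 0.432 and 0.329, then 0.412, 0.355 and 0.963. WT replicate 3 and null replicate 3 stood above the other 7 libraries, which ran from 0.329 to 0.432 CPM. The same libraries had the highest summed level of the 10 hair cell markers, 205 and 261 CPM, against 116 to 160 CPM in the others. Myo6 alone gave 127 and 139 CPM of these sums. The summed neuron markers, led by Isl1, were highest in WT replicate 3 (333 CPM) and lowest in null replicate 3 (244 CPM). Of single neuron markers, Nefl (2.85 and 7.83 CPM), Nefm (6.58 and 16.6) and Elavl4 (2.41 and 3.06) were highest in the same libraries, and the others were not. The part of hair cell or neuron content in these values was not tested. The log2 fold change was 0.17 (SE 0.544) in null against WT, and it turned to -0.40 without null replicate 3 and was 0.65 without WT replicate 3 and 0.48 with a sex covariate. Null against heterozygote gave 0.60 (SE 0.496), which became 0.0284 without null replicate 3 and 0.79 with a sex covariate. Heterozygote against WT gave -0.43 (SE 0.457), which became 0.05 without WT replicate 3. A difference between genotypes was not detectable for Fgf12 at this depth.

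Counted over the family, 1 of 4 members (Fgf14) was called higher and 0 lower in null against WT, where 1.71% of all genes tested were called, 0.92% higher and 0.786% lower. In heterozygote against WT 0 of 4 were called in either direction, beside 0.151% of all genes (0.0521% higher and 0.0984% lower). In null against heterozygote 1 of 4 was called higher and 0 lower, beside 0.615% of all genes (0.293% higher and 0.322% lower). Libraries of null and WT did not overlap for 2 of 4 members, both higher in null (Fgf14 and Fgf11), beside 10.1% of all genes, and for 0 lower in null, beside 8.95%. In heterozygote against WT and null against heterozygote this held for Fgf14 alone, higher in the group with less Prdm16, beside 8.97% and 9.06%, and no member was lower without overlap, beside 8.99% and 9.09%. Because the members were chosen from these values, nothing is read from these counts. The median log2 fold change of the 4 was 0.25 in null against WT, against 0.0097 over all genes tested. All 3 comparisons share libraries in pairs, so their values are not independent of each other.

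**Figure D3:**
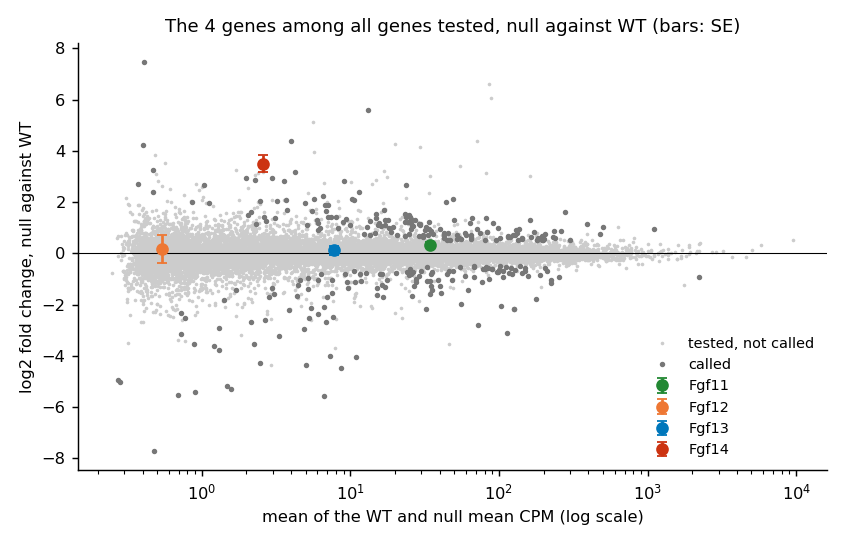
Log2 fold change in null against WT plotted against the mean CPM of both groups (log axis) for all 17168 genes tested, with called genes in dark grey and the 4 family members in colour with SE bars. Fgf14 at 3.50 lay far above the other members, which stood between 0.13 and 0.33.

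The channels these factors bind were examined next, from lists of sodium channel subunits and other partners. Of 10 alpha subunit genes, 8 were tested in null against WT, 0 rose and 1 fell, and their median log2 fold change was -0.28. The gene that fell was Scn9a, which encodes the channel Nav1.7. Scn9a had 4.63, 4.86 and 2.98 CPM in WT, 1.65, 1.62 and 2.19 in heterozygotes and 0.124, 0.323 and 0.628 in nulls, so the genotypes followed each other downwards without overlap, as for 0.742% of all genes. Its log2 fold change in null against WT was -3.53 (SE 0.492, edgeR adjusted p = 0.0144). In heterozygote against WT it was -1.19 (edgeR adjusted p = 0.0723), and in null against heterozygote -2.34 (edgeR adjusted p = 0.102). Fits without WT replicate 1, WT replicate 2 or null replicate 2 did not call Scn9a in null against WT, and over the 6 fits that left out 1 library its log2 fold change was -4.14 to -3.14 (edgeR adjusted p = 0.00517 to 0.0900).

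Scn8a, the neuronal channel Nav1.6, differed less, with means of 14.9, 17.3 and 15.7 CPM in WT, heterozygotes and nulls (log2 fold change 0.07 in null against WT, edgeR adjusted p = 0.908). A p above the threshold does not show equal levels.

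Beta subunits are single-pass partners of the alpha subunit, and 3 of 4 were tested in null against WT. None rose and 1 fell, Scn4b, whose product, the beta 4 subunit, is linked to resurgent sodium current. Scn4b had 54, 38 and 43 counts in WT, 6, 12 and 15 in heterozygotes and 0, 5 and 6 in nulls, which is 1.65 ± 0.304, 0.407 ± 0.155 and 0.138 ± 0.127 CPM (SD, n = 3). All WT libraries were above all others, while the heterozygotes, at 0.241 to 0.548 CPM, overlapped with null replicate 3 at 0.251. The log2 fold change in null against WT was -3.53 (SE 0.659, edgeR adjusted p = 0.0453) and in heterozygote against WT -2.00 (edgeR adjusted p = 0.0588, and called lower by DESeq2). Fits without any 1 of the WT replicates or without null replicate 2 did not call Scn4b, with log2 fold changes of -4.15 to -3.00 and edgeR adjusted p = 0.0289 to 0.219 over the 6. The call was also lost with a sex covariate and without both mesenchyme-rich libraries (edgeR adjusted p = 0.0837 and 0.0949), where the log2 fold changes were -3.51 and -4.22. Scn2b, the most abundant beta subunit, averaged 22.6, 21.3 and 21.0 CPM (log2 fold change -0.11, edgeR adjusted p = 0.781).

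Other partners comprised 12 genes for calmodulins, the scaffold IB2 (Mapk8ip2), ankyrins, neurofascin and related proteins, of which 12 were tested, 0 rose and 1 fell in null against WT. The gene that fell was Nfasc, whose product neurofascin is a cell adhesion protein of the axon initial segment. Nfasc averaged 121 ± 5.34 CPM in WT, 110 ± 2.22 in heterozygotes and 77.1 ± 5.33 in nulls (SD, n = 3). All null libraries, at 71.2 to 81.6 CPM, were below the heterozygotes. Its log2 fold change was -0.66 in null against WT (SE 0.0794, edgeR adjusted p = 0.00762) and -0.52 in null against heterozygote (edgeR adjusted p = 0.0363). Without WT replicate 1 or WT replicate 2 the first was no longer called, and over the 6 fits without 1 library it ran from -0.70 to -0.60 (edgeR adjusted p = 0.00995 to 0.0747). Without both mesenchyme-rich libraries it was -0.67 and not called (edgeR adjusted p = 0.0713). In null against heterozygote, only the fit without null replicate 3 kept the call among 6, with log2 fold changes of -0.56 to -0.46 and edgeR adjusted p = 0.0219 to 0.246, and with a sex covariate it was -0.49 and not called (0.0643). Calm3, the most abundant gene of this list, averaged 402 CPM in WT, 394 in heterozygotes and 455 in nulls (edgeR adjusted p = 0.546 in null against WT).

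In heterozygote against WT edgeR called 0 of 22 partner genes tested (7 alpha subunits, 3 beta subunits and 12 other partners). At an unadjusted p under 0.05, 6 of them were lower and 0 higher, and DESeq2 called 3 of them lower (Cacna1c, Scn4b and Scn9a) and limma-voom 0. In null against heterozygote edgeR and limma-voom called 1 of 20 partner genes, Nfasc, and DESeq2 called Nfasc and Scn9a. Scn9a, Scn4b and Nfasc are known chiefly from neurons, and the 11 neuron markers other than Isl1 summed to 53.2 to 65.6 CPM in WT, 39.4 to 48.2 in heterozygotes and 30.4 to 69.4 in nulls, so every heterozygote lay below every WT library. Against WT, heterozygotes had 5 of 10 tested neuron markers lower and 0 higher at an unadjusted p under 0.05, with 0 called by edgeR and limma-voom and 3 by DESeq2 (Gap43, Nefl and Syt1, all lower). In null against WT edgeR called 0 of 10 neuron markers tested, and 1, Dcx, was lower at an unadjusted p under 0.05 and called by DESeq2 and limma-voom. Between null and heterozygote, where Nfasc and Scn9a were lower in nulls, 4 of 10 neuron markers were higher in nulls and 1 lower at an unadjusted p under 0.05, with 0 called by edgeR and limma-voom and 1 by DESeq2 (Gap43, higher). The part of neuron content in the lower values against WT was not tested.

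**Figure D4:**
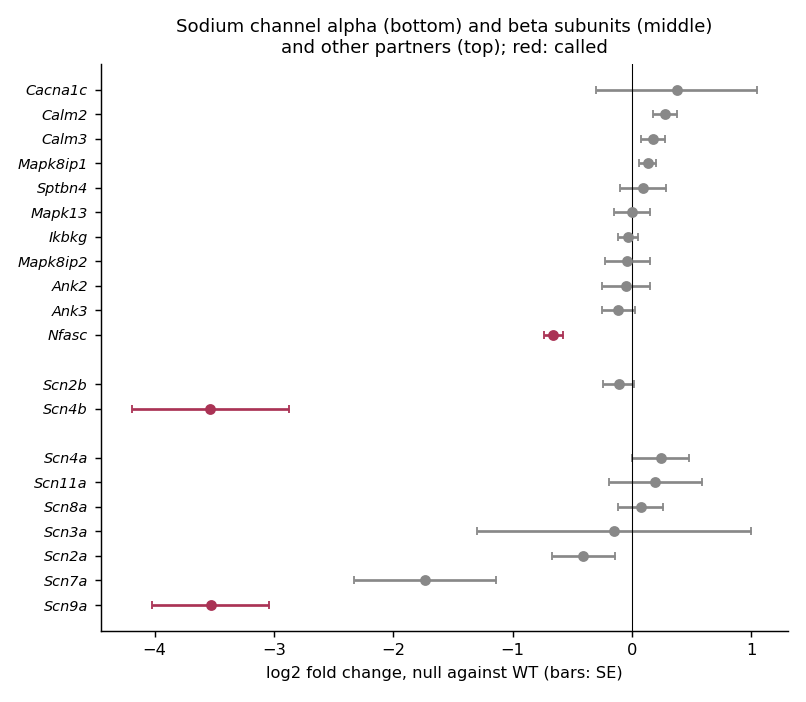
Log2 fold change in null against WT (points) with SE (bars) for tested sodium channel alpha subunits, beta subunits and other binding partners, without a few that are not reported here. Scn9a and Scn4b at -3.53 and Nfasc at -0.66 were the genes called, and the others lay on both sides of 0 with bars of very different width.

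The neighbours of each gene were compared because Fgf14 stood out within its family. In null against WT edgeR called no neighbour of the other members, for Fgf11 (Chrnb1, Zbtb4, Tmem102 and Spem1), Fgf12 (Gm18234, Ccdc50, Mb21d2 and Hrasls) or Fgf13 (Rbmx, Arhgef6 and Hspa9-ps1), with log2 fold changes between -0.65 for Arhgef6 and 0.41 for Spem1. Both neighbours of Fgf14 were on its lower-coordinate side, past the 3' end of the gene, and no gene on the other side was tested. Nalcn, the sodium leak channel, lies 350.8 kb away at chr14:123276634-123627144 on the same strand. Its CPM was 117, 103 and 117 in WT, 133, 124 and 134 in heterozygotes and 190, 158 and 171 in nulls, a series without overlap. Nalcn rose in null against WT (log2 fold change 0.62, SE 0.0920, edgeR adjusted p = 0.0187). Leaving out any WT replicate or null replicate 1 ended that call, with log2 fold changes of 0.55 to 0.69 and edgeR adjusted p = 0.0184 to 0.129 over the 6 fits. With a sex covariate and without both mesenchyme-rich libraries it was not called either (edgeR adjusted p = 0.0527 and 0.131), at log2 fold changes of 0.60 and 0.58. Heterozygote against WT gave 0.21 (edgeR adjusted p = 0.143).

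Itgbl1, an integrin beta-like gene on the opposite strand, ends 2.289 kb from Fgf14. It had 1.04, 0.549 and 1.12 CPM in WT, 1.20, 0.684 and 1.02 in heterozygotes and 2.39, 2.23 and 2.85 in nulls. Null libraries lay above all others, and WT and heterozygotes overlapped. The log2 fold change was 1.45 in null against WT (SE 0.319). It was not called by edgeR (edgeR adjusted p = 0.0802) or limma-voom (0.0733), but was called higher by DESeq2 (0.0118), in 1 fit of all 9 libraries (0.0367) and without a filter on low counts (0.0477). The value was 0.09 in heterozygote against WT (edgeR adjusted p = 0.943) and 1.36 in null against heterozygote (edgeR adjusted p = 0.112, and called by DESeq2 at 0.0172). Of 15 tested genes within 2 Mb of Fgf14, a window chosen after these values were seen, Nalcn was the only one called by edgeR in null against WT. The other 13 ran from -2.10 for Zic5 to 0.90 for Gm49297 with no edgeR adjusted p below 0.378, and the median of all 15 was 0.0045.

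**Figure D5:**
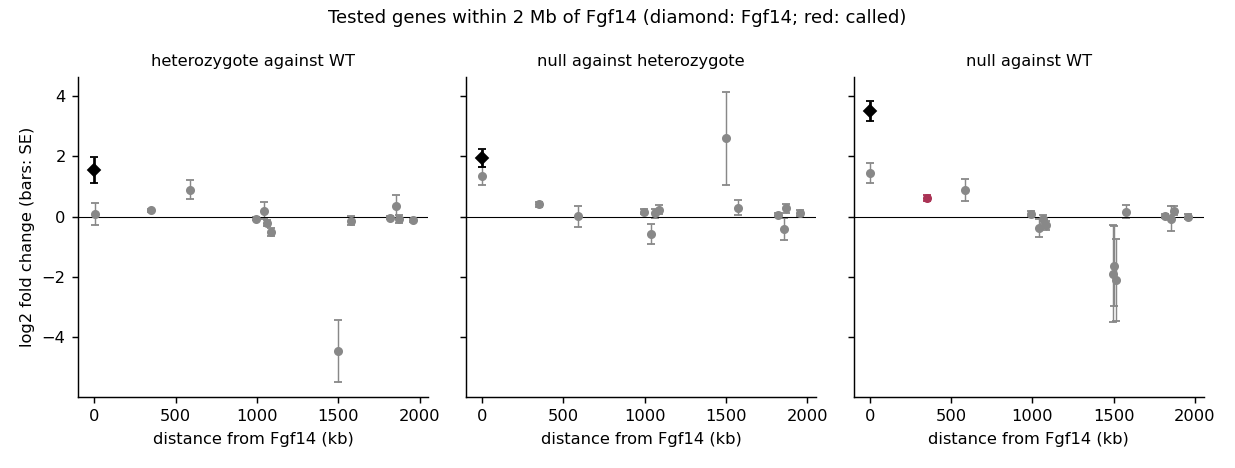
Log2 fold change (points) with SE (bars) of the tested genes within 2 Mb of Fgf14 against their distance from it in kb, 1 panel per comparison, with Fgf14 as a diamond at 0 and called genes in red. In null against WT the nearest genes, Itgbl1 at 1.45 and Nalcn at 0.62, were higher, and the other 13 lay between -2.10 and 0.90.

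Of 18 secreted FGF ligand genes, the relatives that do leave the cell, 15 were tested in null against WT, with a median log2 fold change of 0.38. Of these 2 rose, Fgf16 (1.89, edgeR adjusted p = 0.00494) and Fgf20 (1.35, edgeR adjusted p = 0.0194), and 1 fell, Fgf10 (-0.58, edgeR adjusted p = 0.0254), and Fgf14 at 3.50 lay above all 15. DESeq2 called 5 ligands, adding Fgf2 and Fgf18, and limma-voom 4. Without both mesenchyme-rich libraries Fgf10 was at -0.47 and not called (edgeR adjusted p = 0.189). Over the 6 fits without 1 library Fgf16 kept its call in 6, Fgf10 in 2 (without null replicate 2 or 3) and Fgf20 in 1 (without null replicate 3), with edgeR adjusted p up to 0.0435, 0.176 and 0.114. The edgeR fit called 1 ligand in heterozygote against WT, Fgf16 (1.11, edgeR adjusted p = 0.0498), with Fgf20 just past the threshold (0.90, edgeR adjusted p = 0.0504). DESeq2, a sex covariate, the replicate block, scaling by library size only and no filter on low counts called both. With limma-voom, RLE size factors, a mean count of 100 or more and 1 fit of all libraries neither of them was called. The Fgf16 call was lost without WT replicate 2 or any heterozygote replicate (edgeR adjusted p up to 0.226). Of 5 FGF receptors, led by Fgfr1 and Fgfr2, edgeR, DESeq2 and limma-voom called 0 in null against WT, with 2 at an unadjusted p under 0.05.

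For each member the genes whose log2 CPM followed it most closely over the 9 libraries are given as a description, among 17796 genes. Fgf14 was followed by Fndc7 (Pearson r = 0.981), Lfng (0.978), which encodes a fringe glycosyltransferase of the Notch pathway, and Corin (0.975), a membrane serine protease. Their CPM means were 0.526, 1.86 and 25.7 for Fndc7, 12.7, 21.5 and 34.4 for Lfng and 0.359, 1.10 and 7.65 for Corin in WT, heterozygotes and nulls, and 142 genes had r over 0.9 with Fgf14. By Spearman's rho Fndc7, Lfng and Corin stood at 0.967, 0.933 and 0.950, and the first 3 genes listed were others, Lsamp (0.983), Astn2 and Tirap (0.967 each, level with Fndc7). Fgf11 was followed by Rnf112 (0.980), Pepd (0.973) and Paqr4 (0.968), with 53 genes over 0.9. For Fgf13 the closest were Sfrp5 (0.951), Kcnip3 (0.935), which encodes a calcium sensor that binds potassium channels, and C1ql1 (0.931), and 8 genes were over 0.9. Their rho was 0.80, 0.90 and 0.90, and by rho Eif2s1 (0.950), Runx1 and Stau2 (0.933 each) came first. For Fgf12 they were Myo15 (0.960), a hair bundle myosin, Nek10 (0.956) and Mreg (0.944), with 22 genes over 0.9. The Fgf12 values rest on the 2 libraries in which it was high, since Spearman's rho was 0.57, 0.70 and 0.50 for the same genes. By rho Jarid2 (0.967), Tmc1, a hair cell marker of the list, and Zswim6 (0.950 each) came first for Fgf12. All of these values share library, genotype and depth, so they describe these samples only.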

How the data were processed

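RNA of E14.5 cochlear ducts was sequenced as 50 base single reads by the authors, aligned to mm10 with STAR and, per the submitters' processing notes, trimmed with cutadapt 1.13 and counted with HTSeq 0.6.1p1. The authors deposited whole-number counts per Ensembl gene, not normalized, for 54232 genes in each of 9 libraries. The annotation release and strand setting of the counting are not given in the sources used here, so a gene and its antisense partner may share counts. Symbols and coordinates came from GENCODE (mm10), which matched 54165 identifiers.

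Each pair of genotypes was fitted on its own 6 libraries with the edgeR 4.0.16 quasi-likelihood test (R 4.3.3, TMM scaling, filterByExpr with a minimum count of 10) without pairing. Adjusted p (Benjamini-Hochberg over all genes tested) under 0.05 and absolute log2 fold change over 0.5 made a call, the thresholds of the study. CPM used TMM over all 9 libraries and log2 CPM a prior count of 2. The p-values measure the spread between 3 embryos a group. Procedures were tested on simulated counts. Genes named were the members, Prdm16, list genes called in any comparison, the 2 most abundant of each list (of marker lists only where a result needs them), the 3 closest genes by Pearson r and the 2 nearest tested neighbours on each side. Some genes that this rule names are not reported here. The members and lists were chosen with earlier results of these data known. Alternatives were other scalings and filters, DESeq2 1.42.0, limma-voom 3.58.1, 1 fit of all libraries, a replicate block, a sex covariate and leaving out libraries.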

Additional observations from a re-analysis of the deposited data

How the results depend on the processing

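Fgf14 stayed higher in null against WT in every alternative that tested it, between 3.43 and 3.56 over 8 of them and between 3.29 and 3.93 when 1 library was left out, with the call kept in each. With a mean count of 100 or more Fgf14 and Fgf12 were not tested, and 0 members were called higher in null against WT and 0 in null against heterozygote. Without a filter on low counts 1 member, Fgf14, was called higher in heterozygote against WT. In null against heterozygote Fgf14 ran from 1.75 to 2.33 without 1 library, and the count of members called higher was 0 to 1. Fgf12 was -0.54 in null against WT with both mesenchyme-rich libraries left out, a setting added after seeing the data. In null against heterozygote that setting leaves out null replicate 3 only, and Fgf12 was 0.0284. Without 1 library Fgf12 ran from -0.40 to 0.65 in null against WT, from -0.65 to 0.0477 in heterozygote against WT and from 0.0284 to 0.87 in null against heterozygote.

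Replicate numbers did not pair the samples, since deviations of same-numbered null and WT libraries correlated at 0.0053, -0.14 and -0.28, those of heterozygote and WT at 0.20, 0.11 and -0.06, and those of null and heterozygote at 0.14, -0.12 and 0.08. With the replicate block the count of members called higher in null against heterozygote was 0, and Fgf14 in null against WT was 3.56. The block moved calls over all genes in null against WT from 158 higher and 135 lower to 65 and 68. Under it edgeR did not call Scn9a, Scn4b, Nfasc, Myo7a or Pcp4 in null against WT (edgeR adjusted p = 0.0751, 0.169, 0.0516, 0.0570 and 0.0821), at log2 fold changes of -3.62, -3.60, -0.66, 1.07 and 2.12, or Nfasc in null against heterozygote (-0.52, 0.125). In heterozygote against WT it called Fgf16, Fgf20 and Scn4b (-2.00, edgeR adjusted p = 0.0491). In that comparison replicate 1 was male and replicates 2 and 3 female in both genotypes, so the block there also takes up sex.

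Counts over all genes in null against WT were 329 and 280 with DESeq2, 260 and 208 with all 9 libraries in 1 fit and 267 and 209 without a filter. In heterozygote against WT they were 9 and 17 in edgeR, 54 and 243 with DESeq2, 109 and 575 without a filter, 32 and 165 with the block, 19 and 34 with a sex covariate, 5 and 6 with limma-voom and 0 and 0 in 1 fit. In null against heterozygote they were 50 and 55 in edgeR, 195 and 166 with DESeq2, 227 and 139 without a filter, 79 and 85 in 1 fit and 22 and 30 with the block. Leaving out 1 library gave 31 to 214 higher and 37 to 232 lower in null against WT, 0 to 47 and 0 to 458 in heterozygote against WT, and 5 to 81 and 6 to 101 in null against heterozygote. Without both mesenchyme-rich libraries null against WT had 52 and 66. In this setting heterozygote against WT loses only WT replicate 2 (2 and 1), and null against heterozygote only null replicate 3 (81 and 101). Those values repeat fits without 1 library. The causes were not tested. With 34 WT reads in all, the depth limits the precision of the Fgf14 ratio, and the same holds for every Fgf12 value.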
